A study of Mus musculus with 35 samples.

Results

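RNA polymerase I (Pol I) and the proteins that shape its transcript in the nucleolus were followed through 10 genes: Polr1a, Polr1b, Ubtf, Rrn3, Ncl, Npm1, Fbl, Nop56, Nop58 and Dkc1. They were chosen by name for what their products do, with earlier results of these data known. Each is 1 of the 24480 rows of the gene count table. All 10 were present and all 10 passed the filter on low counts in every comparison. The mice were C57BL/6NRj and wild type. Zygotes or early 2C embryos were injected into the cytoplasm with mRNA for KDM5B, an enzyme that removes methyl groups from histone H3K4, tagged with a yellow fluorescent protein (Kdm5b-yfp), or with nuclease-free water. The groups were 10 water-injected zygotes, 10 Kdm5b-yfp zygotes, 9 water-injected 2C samples and 6 Kdm5b-yfp 2C samples. Zygotes were collected 17 h after ovulation and 5 to 6 h after injection, and 2C samples 5.5 to 8 h after division and about 5 h after injection. Every zygote was a single embryo, whereas 3 of the water-injected and 1 of the Kdm5b-yfp 2C samples were pools of 2 or 3 blastomeres from different embryos. The 2C embryos were grown from zygotes that had been frozen and thawed, and the libraries of both stages were made on separate days, so stage, thawing and library day cannot be told apart. The control was water rather than an mRNA without the enzyme.

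Pol I copies the ribosomal DNA repeats into a single precursor RNA in the nucleolus. UBF, the product of Ubtf, keeps the repeats open, and TIF-IA, the product of Rrn3, brings the polymerase to the promoter. The precursor is then cut and modified by small nucleolar ribonucleoproteins (snoRNPs), of which box C/D particles guide methylation and box H/ACA particles guide pseudouridylation. Fully grown oocytes and zygotes carry compact nucleolus precursor bodies with little rRNA synthesis, and working nucleoli form again around them after the first division.

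Library depth ranged from 8705584 to 17797581 counts in genes. Kdm5b itself took between 2.30% and 15.78% of the counts in the injected groups and at most 0.01895% in the water-injected groups, and its row was removed before normalisation. The 6 oocyte markers (among them Gdf9, Bmp15 and Ooep) were counted in each group, with a summed level of 3470 to 5390 counts-per-million (CPM) in zygotes and 1910 to 3870 CPM in 2C samples. Among them, the mean of Nlrp5 was 914 CPM in water-injected zygotes and 297 CPM in water-injected 2C samples, and that of Ooep 442 and 124 CPM. The means of Zp3 (49.5 and 26.8 CPM), Gdf9 (669 and 383 CPM) and Bmp15 (1414 and 1268 CPM) were also lower. That of Oosp1 was higher, at 485 and 620 CPM. The 6 markers of the 2C stage, such as Zscan4d and Usp17lc, summed to 9.15 to 46.2 CPM in zygotes and to 86.3 to 426 CPM in 2C samples. Markers of cumulus and granulosa cells, 10 in all, summed to between 0.769 and 14.8 CPM, and 3 of them (Ptx3, Amh and Inha) were at 0 in every water-injected 2C sample. In that group Has2 had 13 to 77 counts, and Star, Tnfaip6, Cyp11a1, Foxl2, Fshr and Lhcgr ran from 0 to at most 57. Ptx3 had up to 11 counts in Kdm5b-yfp 2C samples.

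Levels of different genes are compared as transcripts-per-million (TPM), which divides each count by the exon length of the gene. In water-injected zygotes the order was Npm1 (1665 ± 128 TPM), Ncl (525.6 ± 51.3), Nop56 (296 ± 27.6), Dkc1 (151 ± 17.7), Nop58 (131 ± 11.7), Rrn3 (73.8 ± 8.11), Polr1a (22.6 ± 5.92), Fbl (15.8 ± 6.25), Ubtf (7.24 ± 1.31) and Polr1b (4.43 ± 1.34), each as SD with n = 10. The ranges of neighbours overlapped for Dkc1 and Nop58, for Polr1a and Fbl, and for Ubtf and Polr1b. Fibrillarin, encoded by Fbl, is the methyltransferase of the same box C/D particle that holds the Nop56 and Nop58 proteins. Its mean TPM was below theirs in each of the 4 groups, though the ranges met in water-injected 2C samples, with 8.99 ± 3.98 TPM against 106 ± 29.2 for Nop56 in Kdm5b-yfp 2C samples (SD, n = 6). In water-injected 2C samples only Npm1, at 1380 ± 510 TPM (SD, n = 9), was clear of its neighbour, and the ranges of all other neighbours overlapped. The deposited exon length of Ncl is 8257 bases, of which 5978 lie in a single exon block, and a shorter transcript would give a higher TPM for the same count.

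**Figure D1:**
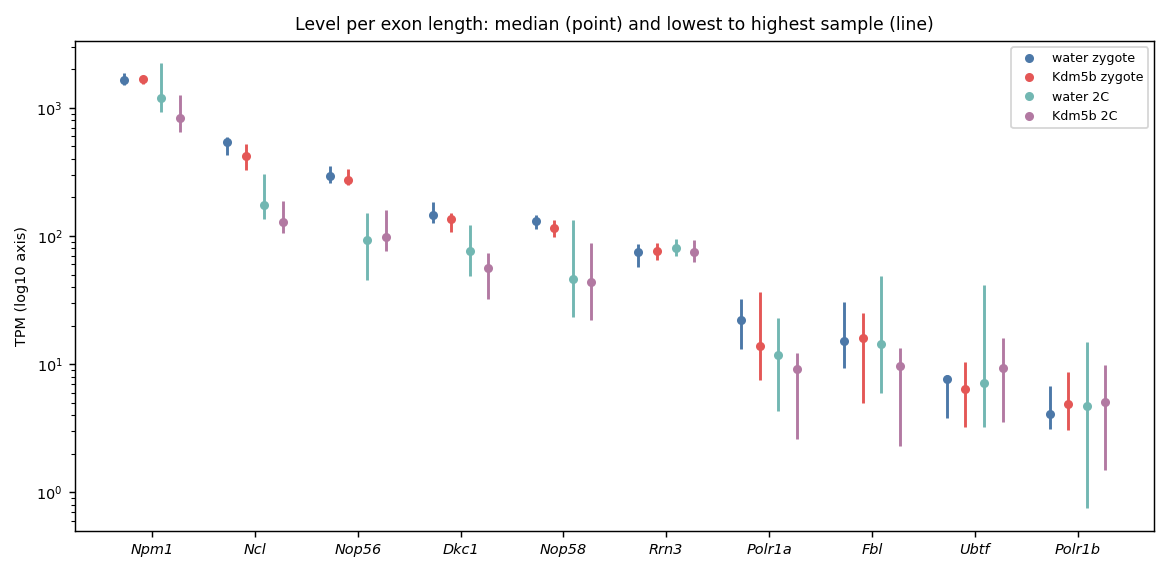
TPM of the 10 genes on a log10 axis, ordered by their mean in water-injected zygotes. Points are medians and lines run from the lowest to the highest sample of each group; Npm1 is the highest gene in all 4 groups and the lines lengthen in 2C samples for genes such as Nop58 and Ubtf.

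Sample-to-sample spread differed between genes and stages. The coefficient of variation of normalised CPM among water-injected zygotes was 8.61% for Npm1, 9.99% for Nop58, 10.5% for Ncl and 18.1% for Ubtf. Among water-injected 2C samples it was 36.2%, 66.01%, 28.1% and 96.2% for the same genes. In Kdm5b-yfp samples Polr1a varied more among zygotes (57.4%) than among 2C samples (50.5%). Rrn3 was the steadiest of the 10 at the 2C stage, with 12.1% in water-injected and 16.4% in Kdm5b-yfp 2C samples. Npm1 had at least 3648 counts in every sample, whereas Fbl had as few as 9 and Polr1b as few as 11.

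**Figure D2:**
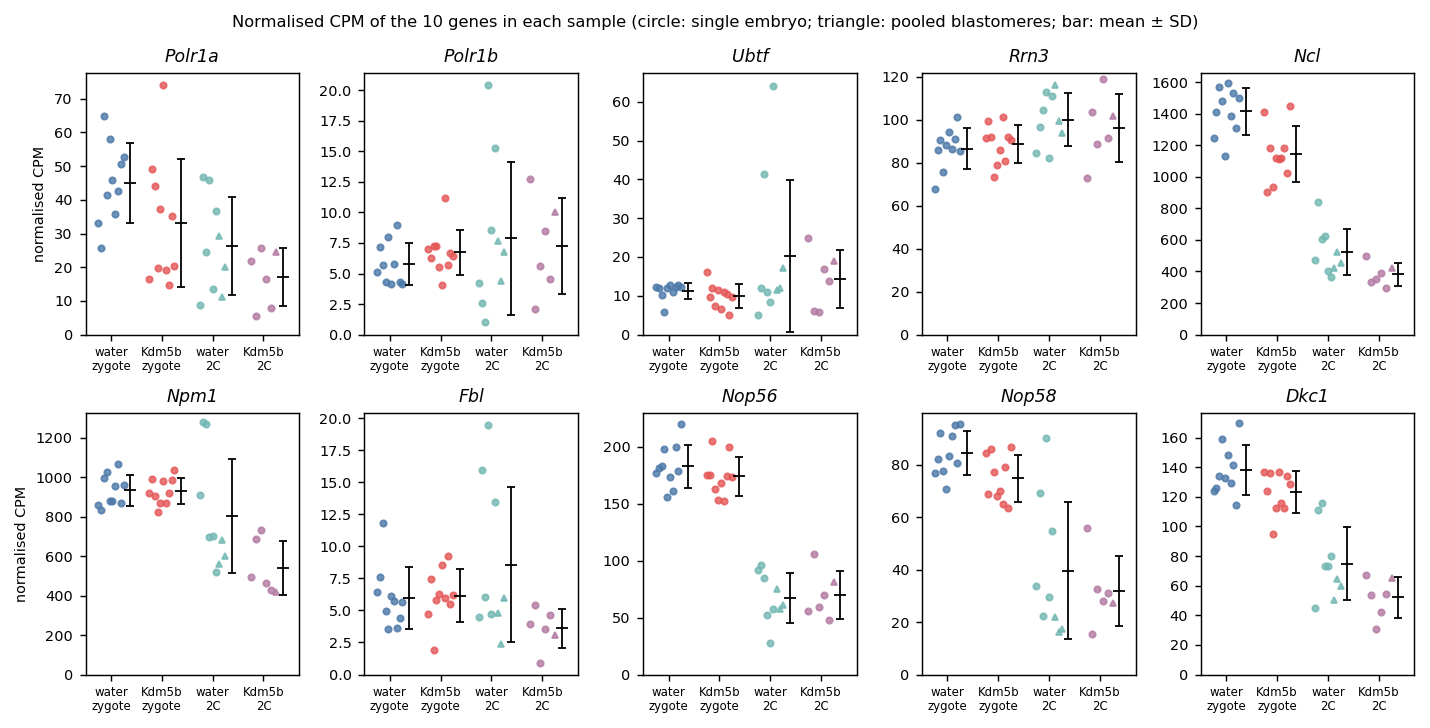
Normalised CPM of each gene (linear axes from 0) in all 35 samples by group, with circles for single embryos, triangles for pooled blastomeres and bars for the mean and SD. The 2C points of Ncl and Nop56 lie below all zygote points, whereas those of Polr1b, Ubtf and Fbl scatter around them with a few high samples.

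The first question was how these transcripts differ between zygotes and early 2C embryos, with no mRNA injected. Of the 10 genes, 3 fell past both thresholds (an adjusted p below 0.05 together with a log2 fold change beyond 1 in either direction) in water-injected samples, Ncl, Nop56 and Nop58, and 0 rose. Over all 11968 genes tested, 13% fell and 9.2% rose by the same rule. At an adjusted p alone, 5 fell (also Polr1a and Dkc1) and 2 rose (Ubtf and Rrn3), where the shares over all genes were 25.4% and 26.8%. The median log2 fold change of the 10 was -0.47, and that of all genes tested was 0.02. Between Kdm5b-yfp zygotes and Kdm5b-yfp 2C samples, 4 fell past both thresholds, Ncl, Nop56, Nop58 and Dkc1, and 0 rose, against 16% and 10.5% of 12390 genes tested. At an adjusted p alone 6 fell and 0 rose, against 29.5% and 29.3%. Values are shares of each library, so a fall of a transcript and a rise of others cannot be told apart here, nor can fewer cells and less RNA per cell.

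The upstream 250 bases of the 4 genes that fell in either stage comparison past both thresholds are shown, since all 4 had lower levels in 2C samples. RefSeq promoter sequences of GRCm38.p6 matched 8 of the 10 genes, and each is written 5′ to 3′ up to the base before the annotated start. Capitals mark exact matches, on either strand, to the E-box CACGTG, to the ETS site CCGGAAG, to the sequence TCTCGCGA or to the TATA box TATAAA.
Ncl, chr1:86359456-86359705, minus strand: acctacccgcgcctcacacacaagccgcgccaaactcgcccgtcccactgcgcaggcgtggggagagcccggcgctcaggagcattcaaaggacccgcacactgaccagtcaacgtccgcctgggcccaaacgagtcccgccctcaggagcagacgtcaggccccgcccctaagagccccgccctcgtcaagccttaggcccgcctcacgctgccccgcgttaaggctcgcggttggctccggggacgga
Nop56, chr2:130274162-130274411, plus strand: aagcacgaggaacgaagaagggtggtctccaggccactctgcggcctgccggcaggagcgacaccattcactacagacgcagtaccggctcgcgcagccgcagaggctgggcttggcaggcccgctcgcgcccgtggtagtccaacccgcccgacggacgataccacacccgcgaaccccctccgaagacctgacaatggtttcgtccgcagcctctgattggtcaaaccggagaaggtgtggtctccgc
Nop58, chr1:59684756-59685005, plus strand: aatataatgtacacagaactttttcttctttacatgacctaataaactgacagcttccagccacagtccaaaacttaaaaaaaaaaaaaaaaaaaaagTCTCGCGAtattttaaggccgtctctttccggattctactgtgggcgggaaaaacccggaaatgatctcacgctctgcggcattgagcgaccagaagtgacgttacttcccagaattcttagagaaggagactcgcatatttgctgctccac
Dkc1, chrX:75095604-75095853, plus strand: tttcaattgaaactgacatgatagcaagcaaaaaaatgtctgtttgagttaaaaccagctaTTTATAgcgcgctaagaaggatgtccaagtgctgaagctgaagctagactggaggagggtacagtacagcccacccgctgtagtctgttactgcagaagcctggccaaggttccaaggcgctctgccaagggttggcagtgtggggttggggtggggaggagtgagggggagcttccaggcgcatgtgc
The window of Nop58 held TCTCGCGA once, 152 bases before the start, a sequence found on either strand in 0.858% of 32851 such windows. That of Dkc1 held TATAAA on the opposite strand, 189 bases before the start, as 12.4% of windows did in either direction. Neither CACGTG, held by 6.02% of all windows, nor CCGGAAG, held by 6.91%, was found in the 4 windows. GC content ran from 41.2% in Nop58 through 52% in Dkc1 and 65.2% in Nop56 to 69.6% in Ncl, and the median over all windows was 52.4%. Of the other matched windows, that of Rrn3 held CACGTG at 2 places. Those of Polr1a, Polr1b and Ubtf held none of the motifs.

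Polr1a and Polr1b encode the largest subunits of Pol I, which together form its active site. Polr1a lies on the plus strand of chromosome 6 (71909053 to 71979360, GRCm38), with 34 exon blocks. Its lowest, median and highest levels were 25.6, 44.2 and 64.9 CPM in water-injected zygotes and 8.71, 24.4 and 46.8 CPM in water-injected 2C samples. The groups overlapped, with 5 of 9 2C samples below every zygote. Its log2 fold change was -0.74 ± 0.26 (SE; 95% interval -1.28 to -0.21; edgeR quasi-likelihood test, adjusted p = 0.0193). With single intact embryos only it was -0.59 (adjusted p = 0.0996). In Kdm5b-yfp samples Polr1a ran from 14.6 through 27.9 to 74.2 CPM in zygotes and from 5.63 through 19.1 to 25.7 CPM in 2C samples. Its log2 fold change there was -0.94 ± 0.35 (adjusted p = 0.0226), and the adjusted p passed 0.05 without Kdm5b-yfp zygote replicate 6 (0.054) and without 2C replicate 2 (0.0517) or 5 (0.0594). Under other choices it passed both thresholds, as with the replicate number as a block (-1.22), with single embryos only (-1.09), and without zygote replicate 1, 4, 7, 8 or 10 or 2C replicate 1, 3 or 6 (as far as -1.10).

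Polr1b, on the plus strand of chromosome 2 (129100996 to 129126595), stood at 4.11, 5.43 and 9.01 CPM (lowest, median and highest) in water-injected zygotes. In water-injected 2C samples it stood at 1.02, 6.75 and 20.4 CPM, so the 2C range enclosed that of the zygotes. Its log2 fold change of 0.48 ± 0.38 had an adjusted p of 0.298. In Kdm5b-yfp samples the value was 0.12 ± 0.29 (95% interval -0.48 to 0.72, adjusted p = 0.745).

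Ubtf, on the minus strand of chromosome 11 (102304563 to 102319096), had 5.94, 12.1 and 12.9 CPM in water-injected zygotes and 5.14, 11.9 and 64.2 CPM in water-injected 2C samples. The medians were close, and 2 single 2C embryos, replicates 3 (41.4 CPM) and 6 (64.2 CPM), stood far above the rest. A log2 fold change of 0.88 ± 0.35 came with an adjusted p of 0.0367. Without 2C replicate 6 it was 0.41 (adjusted p = 0.234), without 2C replicate 3 it was 0.67 (adjusted p = 0.102), and the adjusted p was also at or over 0.05 without zygote replicate 3, 4 or 7 (0.0528, 0.0632 and 0.05). Library size scaling, no filter and the replicate block gave adjusted p values of 0.0622, 0.0605 and 0.272. In all, 7 of 10 other settings kept the adjusted p under 0.05. In Kdm5b-yfp samples the log2 fold change was 0.55 ± 0.28 (adjusted p = 0.0889), and leaving out zygote replicate 1, 2C replicate 2 or 2C replicate 3 brought the adjusted p to 0.0471, 0.0257 and 0.0231.

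Rrn3, on the plus strand of chromosome 16 (13780699 to 13814841), had 67.6, 87.1 and 101 CPM in water-injected zygotes and 82.3, 99.2 and 116 CPM in water-injected 2C samples. The groups overlapped, with 4 of 9 2C samples above every zygote. Its log2 fold change was small, 0.24 ± 0.09 (adjusted p = 0.0314). It was 0.15 (adjusted p = 0.203) when scaled to library size only, and leaving out any of 5 single samples (zygote replicate 1 or 4, 2C replicate 4, 6 or 7) gave adjusted p values of 0.055 to 0.0678. No filter, the replicate block and single intact embryos only gave 0.25, 0.0642 and 0.0985. In all, 6 of 10 other settings kept the adjusted p under 0.05. In Kdm5b-yfp samples Rrn3 had a log2 fold change of 0.13 ± 0.10 (adjusted p = 0.272).

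Nucleolin, encoded by Ncl, binds precursor rRNA and nucleolar chromatin. Ncl lies on the minus strand of chromosome 1 (86344719 to 86359455). Its lowest, median and highest levels in water-injected zygotes were 1130, 1445 and 1591 CPM, and in water-injected 2C samples 366, 474 and 839 CPM. All 9 2C samples were below all 10 zygotes. This gave a log2 fold change of -1.41 ± 0.12 (95% interval -1.66 to -1.15; adjusted p = 7.31e-10), a 2.65-fold lower level. Kdm5b-yfp zygotes had 902, 1121 and 1451 CPM and Kdm5b-yfp 2C samples 293, 371 and 500 CPM, again with no overlap. The log2 fold change between them was -1.57 ± 0.12 (adjusted p = 6.03e-11).

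Nucleophosmin, encoded by Npm1, is an abundant histone and ribosome chaperone of the outer nucleolus. Npm1 lies on the minus strand of chromosome 11 (33152498 to 33163206). It had 833, 918 and 1069 CPM in water-injected zygotes and 518, 697 and 1280 CPM in water-injected 2C samples. The 2C samples lay on both sides of the zygotes, 6 of 9 below every zygote and 2 above (replicates 2 and 3, at 1280 and 1269 CPM). A log2 fold change of -0.19 ± 0.14 did not pass (adjusted p = 0.272), and without 2C replicate 2 it was -0.30 (adjusted p = 0.0441). In Kdm5b-yfp samples Npm1 fell, from 824, 920 and 1034 CPM in zygotes to 420, 477 and 734 CPM in 2C samples without overlap (log2 fold change -0.78 ± 0.11, adjusted p = 9.06e-07). Mouse Npm1 has many processed pseudogenes, and fragments that map to several places were not counted, so its level is uncertain.

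Fbl, Nop56 and Nop58 encode proteins of box C/D snoRNPs. Fbl lies on the plus strand of chromosome 7 (28169748 to 28179269) and had 3.57, 5.71 and 11.8 CPM in water-injected zygotes against 2.39, 5.96 and 19.5 CPM in water-injected 2C samples. The medians were close and the log2 fold change of 0.55 ± 0.34 did not pass (adjusted p = 0.185). With single intact embryos only it was 0.86 (adjusted p = 0.0429). In Kdm5b-yfp samples its sign was opposite, -0.76 ± 0.33, and did not pass (adjusted p = 0.0549). Without zygote replicate 3 or 2C replicate 2 or 5 its adjusted p was 0.0179, 0.0295 and 0.0467.

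Nop56, on the plus strand of chromosome 2 (130274412 to 130279313), fell with no overlap between the stages. Its levels were 156, 180 and 220 CPM in water-injected zygotes and 27.9, 61.1 and 96.0 CPM in water-injected 2C samples. The fitted change was a log2 of -1.42 ± 0.15 (95% interval -1.73 to -1.10; adjusted p = 3.24e-08), a 2.67-fold lower level. In Kdm5b-yfp samples it fell from 152, 174 and 204 CPM to 48.1, 64.4 and 106 CPM (-1.30 ± 0.13, adjusted p = 9.87e-09).

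Nop58, on the plus strand of chromosome 1 (59685006 to 59711510), had 70.9, 82.6 and 95.5 CPM in water-injected zygotes and 16.2, 29.7 and 90.1 CPM in water-injected 2C samples. Of the 2C samples, 8 of 9 were below every zygote and 1 (replicate 4, at 90.1 CPM) was not. The log2 fold change was -1.06 ± 0.25 (adjusted p = 0.000941). The 3 pooled 2C samples had 16.2 to 21.9 CPM and the 6 single embryos 22.5 to 90.1 CPM, and with single embryos only the log2 fold change was -0.73 (adjusted p = 0.00898), short of the fold threshold. Leaving out 2C replicate 3, 7, 8 or 9 also left it short of that threshold, at -0.96 where it was nearest 0. In Kdm5b-yfp samples all 6 2C values, 15.3 to 55.9 CPM, were below all zygotes, at 63.5 to 86.8 CPM (-1.23 ± 0.17, adjusted p = 1.71e-06).

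Dyskerin, encoded by Dkc1, is the pseudouridine synthase of box H/ACA snoRNPs and also a part of telomerase. Dkc1 lies on the plus strand of chromosome X (75095854 to 75109776). It had 115, 134 and 170 CPM in water-injected zygotes and 45.0, 73.3 and 116 CPM in water-injected 2C samples, of which 8 of 9 were below every zygote. Dkc1 fell by a log2 fold change of -0.85 ± 0.15 (adjusted p = 2.46e-05), under the fold threshold. In Kdm5b-yfp samples it passed both, falling from 95.1, 126 and 137 CPM to 31.0, 53.9 and 67.04 CPM (-1.23 ± 0.14, adjusted p = 3.37e-08). The difference between these 2 stage effects was the interaction of stage and injection, -0.36 ± 0.21, which did not pass (adjusted p = 0.617).

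**Figure D3:**
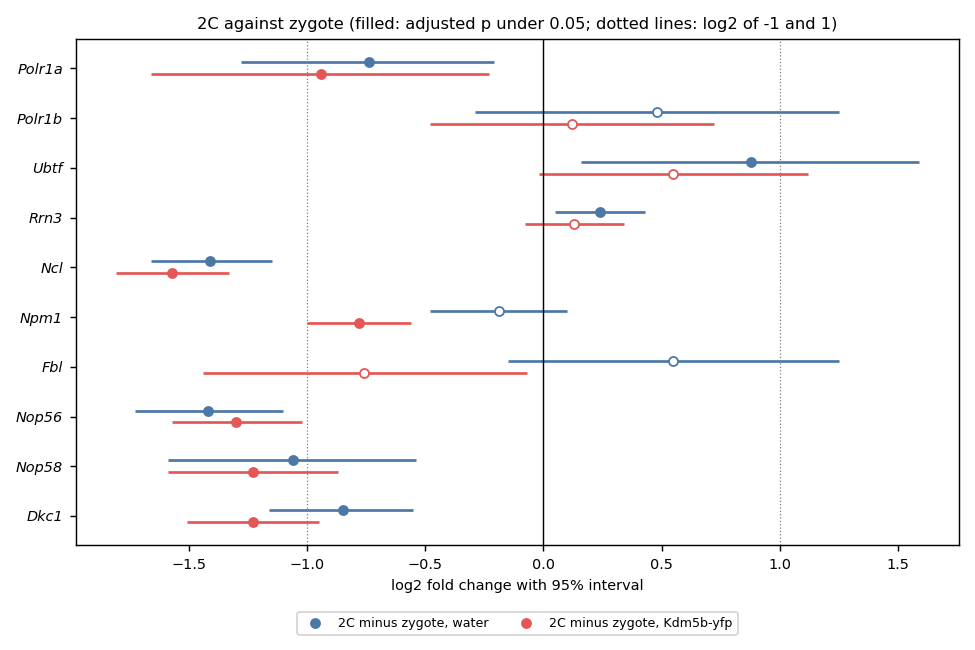
Log2 fold change of 2C samples against zygotes for each gene, with 95% intervals, in water-injected and Kdm5b-yfp samples. Filled points have an adjusted p under 0.05; Ncl, Nop56 and Nop58 lie beyond -1 in both, and the intervals of Polr1b include 0 in both.

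The count table holds 6 rows of snoRNA genes that lie within 3 of the 10 genes: Snora75 and Snord82 in Ncl, Snord110 and Snord57 in Nop56, and Snord70 and Snord11 in Nop58. The box C/D snoRNAs of Nop56 and Nop58 hardly appeared, with 0 to 11 counts in any sample. Those of Ncl were counted most, and their sequences from the GENCODE transcripts of GRCm38 are shown for that reason. Capitals mark the ACA box of the H/ACA snoRNA Snora75, and the C box (TGATGA) and D box (CTGA) of the C/D snoRNA Snord82.
Snora75, chr1:86351169-86351301, minus strand: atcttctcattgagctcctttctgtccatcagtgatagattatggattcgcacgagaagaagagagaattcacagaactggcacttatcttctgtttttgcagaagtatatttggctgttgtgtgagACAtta
Snord82, chr1:86356261-86356330, minus strand: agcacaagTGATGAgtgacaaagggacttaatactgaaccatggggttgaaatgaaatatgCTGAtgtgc
Snora75 had 0.111, 0.334 and 1.34 CPM (lowest, median and highest) in water-injected zygotes and 0.230, 1.83 and 5.12 CPM in water-injected 2C samples, and it did not pass the filter on low counts in that comparison. In Kdm5b-yfp samples it had 0.188, 0.727 and 1.36 CPM in zygotes and 0.571, 3.13 and 4.13 CPM in 2C samples. There it rose (log2 fold change 1.92 ± 0.48, adjusted p = 0.00135), while its host gene Ncl fell. Snord82 had a log2 fold change of 0.66 ± 0.46 in water-injected samples (adjusted p = 0.237) and of 0.85 ± 0.46 in Kdm5b-yfp samples (adjusted p = 0.122). These snoRNAs lie on the strand of their host, so fragments of unspliced Ncl RNA and of the snoRNA cannot be told apart in these counts.

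The second question was whether Kdm5b-yfp changed these transcripts within a stage. In zygotes, 0 of the 10 passed an adjusted p of 0.05 in edgeR, with or without the fold threshold, and 3 had an unadjusted p under 0.05. Over 11933 genes tested, 0.00838% passed both thresholds, 0.134% passed at an adjusted p alone and 10.3% had an unadjusted p under 0.05. DESeq2's Wald test called 1 at an adjusted p alone, Ncl, and gave no adjusted p for Polr1b, Ubtf and Fbl. The median log2 fold change was -0.11 for the 10 and 0.01 for all genes.

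Ncl had the smallest p of the 10 in zygotes and ranked 27 of all genes tested. Its levels of 902, 1121 and 1451 CPM after Kdm5b-yfp injection compare with 1130, 1445 and 1591 CPM after water, and 6 of 10 injected zygotes were below every control. The log2 fold change was -0.30 ± 0.07 (95% interval -0.44 to -0.15, unadjusted p = 0.000221, adjusted p = 0.0941), which missed the threshold. DESeq2's Wald test gave the same size with an adjusted p of 0.0148, where 0.855% of genes passed. Leaving out water-injected replicate 5 or Kdm5b-yfp replicate 1 or 10 gave adjusted p values of 0.0354, 0.032 and 0.0384. Of 10 other settings, DESeq2's Wald test alone brought the adjusted p of Ncl under 0.05. In an edgeR fit of all 35 samples Ncl was -0.31 (unadjusted p = 0.00865) and did not pass, and 0 of 13778 genes did. The labels give each library an index number, and blocks of 8 consecutive numbers, called strips here, were formed from them. That libraries were handled in such strips is inferred and not stated. The zygote libraries fell into 3 of these, and the log2 ratio of mean CPM of Ncl was -0.36, -0.31 and -0.18 within them. Nop58 (-0.16 ± 0.07) and Dkc1 (-0.15 ± 0.07) also had unadjusted p values under 0.05, 0.0257 and 0.0381, with adjusted p of 0.412 and 0.452. Npm1 differed by 0.01 ± 0.05, and its 95% interval of -0.09 to 0.11 is the narrowest of the 10.

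In 2C samples, 0 of the 10 passed an adjusted p of 0.05 in edgeR at either rule, and 4 had an unadjusted p under 0.05. DESeq2's Wald test called 0, but gave no adjusted p for Polr1b, Ubtf and Fbl. Of 12244 genes tested, 0.00817% passed both thresholds, 0.0245% passed at an adjusted p alone and 9.41% had an unadjusted p under 0.05. The fitted log2 fold change was below 0 for 9 of the 10, with a median of -0.46, where 50.3% of all genes were below 0 and the median was 0. Nop56 was the exception (0.07 ± 0.22).

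Npm1 stood at 518, 697 and 1280 CPM in water-injected and at 420, 477 and 734 CPM in Kdm5b-yfp 2C samples, with 4 of 6 below every control. The log2 fold change was -0.57 ± 0.20 (95% interval -0.97 to -0.16, adjusted p = 0.358). Ncl differed by -0.44 ± 0.16 (-0.78 to -0.11, adjusted p = 0.373), Dkc1 by -0.51 ± 0.22 (-0.95 to -0.06, adjusted p = 0.459) and Fbl by -1.24 ± 0.48 (-2.23 to -0.24, adjusted p = 0.411). The Fbl values were 2.39, 5.96 and 19.5 CPM in controls and 0.908, 3.74 and 5.42 CPM after Kdm5b-yfp injection. The 4 genes named, and also Polr1a, had all 6 Kdm5b-yfp samples below the control mean, and the share of all genes that did so was not determined. For Npm1 and Fbl the control means, 802 and 8.58 CPM, lay above the control medians of 697 and 5.96 CPM. For Polr1a, Polr1b, Ubtf, Rrn3 and Nop58 the intervals included 0 and were as wide as -1.16 to 0.95 for Polr1b.

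By their index numbers the 2C libraries fell into 2 of these inferred strips, and the injections were not balanced between them: strip 11 held 3 water-injected and 5 Kdm5b-yfp samples, and strip 12 held 6 and 1. The strip also went with the level of Npm1 among controls, at 909 to 1280 CPM in strip 11 and 518 to 703 CPM in strip 12, which held all 3 pooled controls. The pooled controls had 562 to 682 CPM, and the single controls of strip 12, replicates 4, 5 and 6, had 697, 703 and 518 CPM. Within strip 11 Npm1 was lower in all 5 Kdm5b-yfp samples (420 to 734 CPM), and the log2 ratio of means was -1.04 there and -0.54 in strip 12. With the strip as a covariate, Npm1 had a log2 fold change of -0.86 (adjusted p = 0.00723) and Ncl of -0.66 (adjusted p = 0.0317), both past an adjusted p of 0.05 and neither past the fold threshold. In that fit 2.07% of all genes passed at an adjusted p alone and 0.433% passed both. In strip 11 alone, a fit chosen after the data were seen, Npm1 passed both thresholds (-1.04, adjusted p = 0.032), as 0.563% of genes did. Polr1b changed sign with the strip, from -0.10 in the fit without it to 0.95 (adjusted p = 0.524), and so did Nop56, from 0.07 to -0.24 (adjusted p = 0.608). A fit of all 35 samples gave adjusted p values of 0.0195 for Npm1 and 0.0413 for Ncl at -0.58 and -0.46, where 3.83% of genes passed. With single intact embryos only, Npm1 was -0.66 (adjusted p = 0.459) and Ncl -0.55 (adjusted p = 0.479), and 0 of 11965 genes passed. The strip's part in these differences was not tested apart from the pooling of blastomeres.

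Whether the effect of Kdm5b-yfp differed between stages was tested as an interaction over all 35 samples. None of the 10 passed in edgeR (0 at an adjusted p of 0.05, 2 at an unadjusted p under 0.05), where 0.0145% of 13778 genes passed both thresholds, 0.109% passed at an adjusted p alone and 9.1% had an unadjusted p under 0.05. DESeq2's Wald test also called 0. The 2 were Npm1, at -0.57 ± 0.19 (95% interval -0.96 to -0.18, adjusted p = 0.271), and Fbl, at -1.29 ± 0.50 (-2.29 to -0.28, adjusted p = 0.376).

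**Figure D4:**
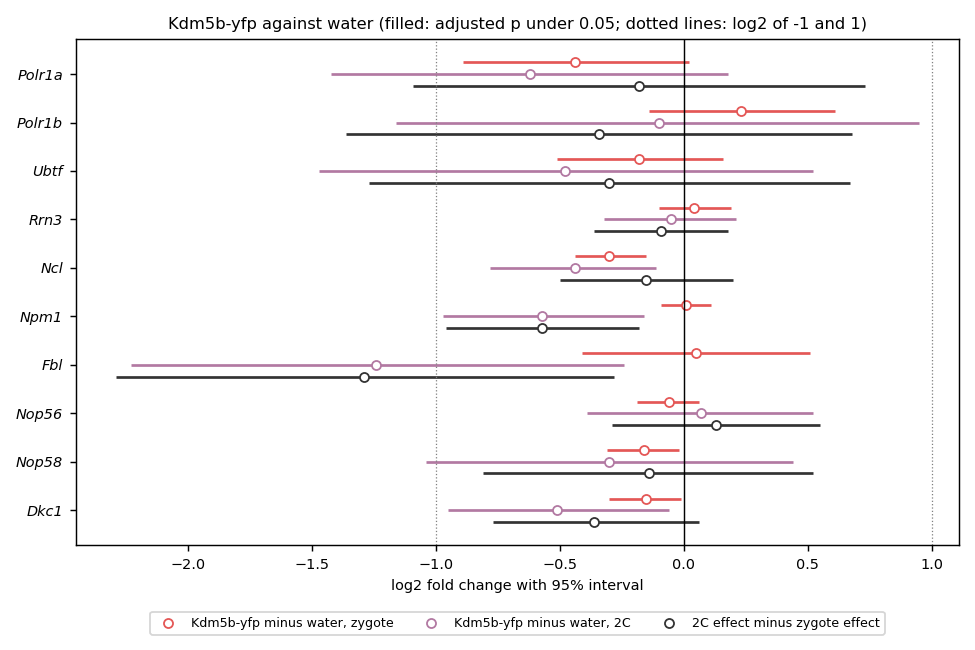
Log2 fold change of Kdm5b-yfp against water-injected samples in zygotes and in 2C samples, and the difference between the effects, with 95% intervals. All points are open, since none had an adjusted p under 0.05; the intervals of Ncl lie below 0 at both stages and those of 2C samples are wider than those of zygotes.

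The wider pathway was read from lists of genes with known roles, in water-injected 2C samples against zygotes, where 13% of all genes fell and 9.2% rose past both thresholds, and 25.4% and 26.8% at an adjusted p alone. Of 11 other Pol I subunits, some shared with other polymerases, 4 fell and 2 rose by either rule (median log2 fold change -0.53). Polr1d, a subunit shared with Pol III, fell from 54.8 to 23.7 CPM in the mean (-1.18 ± 0.18, adjusted p = 3.65e-06), and Cd3eap, which encodes the Pol I subunit now called Polr1g, from 14.2 to 3.03 CPM (-2.19 ± 0.34). Polr2f, which Pol I, II and III share, rose from 11.5 to 27.6 CPM (1.30 ± 0.16, adjusted p = 1.84e-07), as did Polr1c (1.30 ± 0.40).

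Of 9 tested Pol I factors, 3 fell and 1 rose past both thresholds, and 5 and 2 at an adjusted p alone, with a median of -0.59. Taf1a and Taf1b encode parts of the selectivity factor SL1, which sets Pol I on the ribosomal DNA promoter. Taf1a fell from 364 ± 52.8 CPM (SD, n = 10) to 55.7 ± 17.9 CPM (SD, n = 9), with a log2 fold change of -2.68 ± 0.15 (SE, adjusted p = 9.31e-13). Taf1b fell from 68.6 to 9.80 CPM (-2.77 ± 0.23, adjusted p = 4.18e-10). The transcription terminator Ttf1 rose from 2.28 to 5.13 CPM (1.20 ± 0.38, adjusted p = 0.01).

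Among 14 tested genes of snoRNP cores and assembly, 1 fell and 3 rose past both thresholds, whereas 4 fell and 3 rose at an adjusted p alone (median -0.18). Znhit6, an assembly factor of box C/D particles, fell from 74.9 to 15.1 CPM (-2.28 ± 0.32). The AAA+ ATPase gene Ruvbl1, used in that assembly and in chromatin remodelling, rose from 3.81 to 18.7 CPM (2.32 ± 0.30, adjusted p = 4.54e-07), and Znhit3 rose by 1.03 ± 0.27.

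A list of 37 genes covered the processome that cuts out the small subunit rRNA and later small subunit assembly, as Ltv1 and Nob1. Of these 37, 15 fell and 2 rose past both thresholds, and 25 and 3 at an adjusted p alone (median -0.77). Utp11, listed as Utp11l, fell from 43.1 to 4.88 CPM (-3.11 ± 0.25, adjusted p = 2.67e-10), and Nat10, an rRNA acetyltransferase, from 114 to 24.4 CPM (-2.19 ± 0.17). Nol11 rose from 2.84 to 14.9 CPM (2.43 ± 0.42, adjusted p = 2.31e-05) and Esf1 by 1.03 ± 0.28.

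Of 41 large subunit assembly genes, 20 fell and 5 rose past both thresholds, and 29 and 5 at an adjusted p alone, with the lowest median of the lists, -0.94. The GTPase gene Gnl2 fell from 125 to 15.4 CPM (-2.98 ± 0.23, adjusted p = 1.36e-10) and the helicase gene Ddx18 from 130 to 37.3 CPM (-1.77 ± 0.14). Mak16 rose from 3.61 to 37.5 CPM (3.40 ± 0.38, adjusted p = 4.41e-08), and Nop2, an rRNA methyltransferase, from 3.83 to 15.9 CPM (2.09 ± 0.39).

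The relatives of Npm1 went apart. Npm2, the nucleoplasmin stored in oocytes, stood at 1010 ± 171 CPM in water-injected zygotes (SD, n = 10) and 511 ± 113 CPM in water-injected 2C samples (SD, n = 9), with a log2 fold change of -0.96 ± 0.12 (adjusted p = 1.98e-07). Npm3 rose from 15.7 to 23.7 CPM (0.62 ± 0.17, adjusted p = 0.00354). Both were under the fold threshold.

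**Figure D5:**
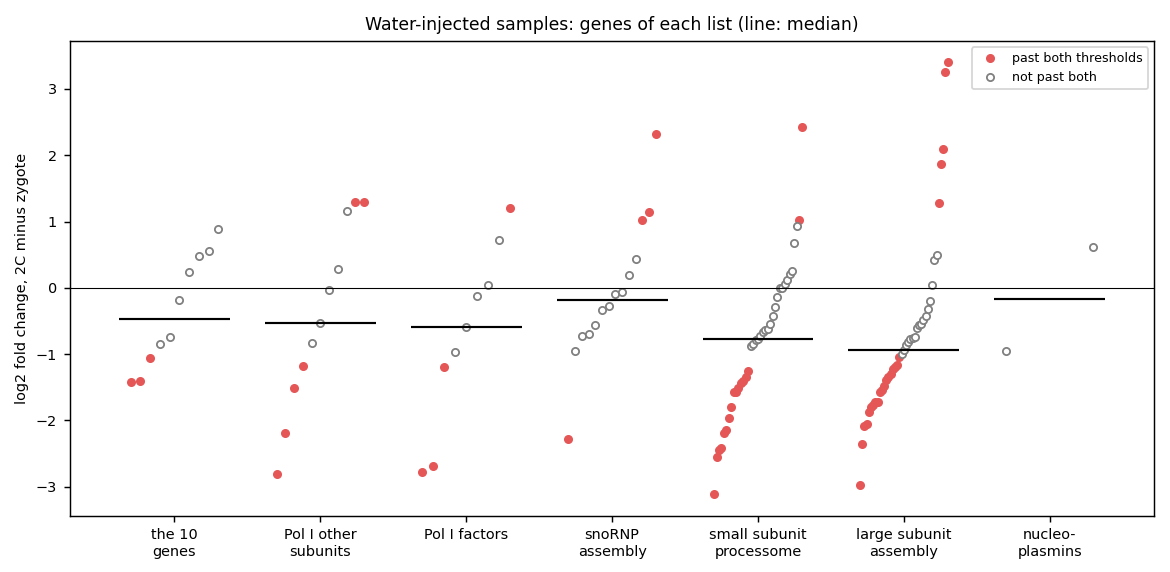
Log2 fold change of 2C samples against zygotes, both water-injected, for the 10 genes and for each list, 1 point a gene, sorted within a list, with a line at the median. Filled points passed both thresholds; the small and large subunit lists have their medians at -0.77 and -0.94, and single genes such as Mak16 rise to 3.40.

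The same lists were read in Kdm5b-yfp 2C samples against Kdm5b-yfp zygotes, where 16% of all genes fell and 10.5% rose past both thresholds. By that rule they gave 6 lower and 2 higher Pol I subunits, 4 and 0 Pol I factors and 4 and 1 snoRNP genes. The small subunit list gave 19 lower and 2 higher genes, and the large subunit list 25 and 2 of 40. Of the list genes named by the rule that passed both thresholds in water-injected samples, 4 did not in Kdm5b-yfp samples: Ttf1 (0.12 ± 0.43) and Nop2 (0.57 ± 0.35) missed the adjusted p, and Znhit3 (0.75 ± 0.25, adjusted p = 0.0128) and Esf1 (0.99 ± 0.28, adjusted p = 0.00369) missed the fold threshold. The interaction was called for none of these 4. Within a stage, 0 of the list genes passed both thresholds after Kdm5b-yfp injection in the fits of each stage alone. In 2C samples other fits gave lower list genes past both, 1 with the index strip as a covariate, 3 in strip 11 alone and 2 with all 35 samples in a single fit. Over all genes, 0.433%, 0.563% and 0.508% passed both in those fits, against 0.00817% in the fit of 2C samples alone. At an adjusted p alone, 1 list gene passed in the fits of each stage alone, Wdr36 of the small subunit list in zygotes (-0.44 ± 0.09, adjusted p = 0.0306). The interaction was passed by 1, Wdr43 (-0.65 ± 0.14, adjusted p = 0.0343). Both were picked out after their values were seen. In 2C samples the fitted value was below 0 for 39 of 41 large subunit genes (median -0.34) and for 10 of 11 Pol I subunits (median -0.37), where 50.3% of all genes were below 0 (median 0). In zygotes it was below 0 for 34 of 40 (median -0.10) and 5 of 11 (median 0.03), where 47.4% of all genes were (median 0.01).

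For each of the 10 genes, the gene outside the set whose log2 CPM followed it most closely over the 35 samples was found among 13778 genes. The Pearson correlation was 0.973 between Npm1 and U2surp, 0.968 between Nop56 and Diexf, 0.967 between Ncl and Dnaja1, 0.934 between Dkc1 and Hmgb1 and 0.918 between Nop58 and Med7. For the other 5 it was lower, at 0.770 between Polr1b and Grk4, 0.748 between Ubtf and Cdkn1c, 0.738 between Polr1a and Gk5, 0.714 between Rrn3 and Plvap and 0.685 between Fbl and Jtb. These are descriptions, since the samples share their stage, library day and depth.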

How the data were processed

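Total RNA of 35 mouse zygote and 2C samples was sequenced with a stranded single-cell kit. The authors trimmed the reads with fastp 0.21.0, aligned them to GRCm38 with STAR 2.7.3a and assigned read pairs strand-specifically to RefSeq genes with featureCounts 1.5.1, which left out fragments that map to several places. They deposited these counts as whole numbers, not normalised, for 24480 genes. They also deposited estimated counts of 18536 repeats from SalmonTE, with repeats over Kdm5b exons removed, which were used here only for 4 rows described without a test. Gene names and exon positions are those of the deposited table, and 0 columns belonged to no sample.

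The Kdm5b row was removed. Only the groups compared entered each fit, made with edgeR 4.0.16 under R 4.3.3 (TMM normalisation, filterByExpr with a minimum count of 10, quasi-likelihood test, Benjamini-Hochberg adjustment over all genes tested), except the interaction, which used all 35 samples. Calls took the study's thresholds, adjusted p below 0.05 with a log2 fold change beyond 1 or -1. The words rose and fell are used from an adjusted p under 0.05. CPM were scaled by TMM factors over all samples, and TPM used the deposited exon length. Alternatives were DESeq2 1.42.0, other scaling and filters, the Kdm5b row kept, all samples in 1 fit, a replicate block, a covariate for the index strip, single embryos only and each sample left out. Fits were tested on simulated data.

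The members and lists were chosen with earlier results of these data known. Besides the 10 genes, named genes are up to 2 higher and 2 lower genes of each list with the smallest p past both thresholds between the stages in water-injected samples, Npm2 and Npm3, and the closest gene to each member by Pearson correlation of log2 CPM (prior count 2). Samples are separate embryos or pools, and their mothers are not named, so p-values measure the spread between these samples. Same-numbered replicates did not deviate together (correlations of -0.185 to 0.102), 0 columns were identical, and Rn45s was not analysed here. Figures were drawn with matplotlib 3.10.9.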

Additional observations from a re-analysis of the deposited data

Results flagged for a closer look

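Among the 40 groups of values formed by the 10 genes and the 4 groups, 3 held a single sample far from the others by Dixon's test, which flags about 1 in 20 groups by chance. Polr1b was 11.2 CPM in Kdm5b-yfp zygote replicate 7, where the next highest of the 10 was 7.29 CPM. Ubtf was 5.94 CPM in water-injected zygote replicate 4, where the next lowest was 10.3 CPM. Fbl was 11.8 CPM in water-injected zygote replicate 3, where the next highest was 7.58 CPM.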

How the results depend on the processing

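Of 1560 member values recomputed under other settings, 1510 kept their sign and were called, or not, as before by the rule of both thresholds together, 25 changed sign, 5 lost such a call and 20 gained one. Values that crossed the adjusted p alone, as for Rrn3 and Ubtf, are among the 1510 where the fold threshold was not met. In water-injected 2C samples against zygotes, dropping the fold threshold gave 2 higher and 5 lower genes of the 10, against 26.8% and 25.4% of all genes. Single embryos only gave 1 higher (Ubtf), where 20.8% of all genes passed both thresholds in either direction. In strip 11 alone, 1 of the 10 was lower after Kdm5b-yfp injection in 2C samples, where 0.563% of all genes passed both thresholds. With each sample left out, 2 to 3 of the 10 were lower past both thresholds in water-injected and 4 to 5 in Kdm5b-yfp samples. With every sample kept, 13% and 16% of all genes were. The replicate numbers do not pair the samples: 0 of 10, 2 of 6, 1 of 9 and 1 of 6 correlated best with their own number. The block left 3 of the 10 lower past both thresholds between water-injected stages and 5 between Kdm5b-yfp stages. Over all genes, 20.8% and 24.6% passed in either direction. With the replicate block Npm1 in 2C samples after Kdm5b-yfp injection was -0.69 (adjusted p = 0.0318) and Polr1b 0.09. Polr1b also turned to -0.01 between Kdm5b-yfp stages under library size scaling, and in 2C samples after injection it turned to 0.95 with the strip covariate and 1.57 in strip 11, where Rrn3 was 0.03 and Nop56 -0.29; with the covariate Nop56 was -0.24. Values whose sign turned when 1 sample was left out all missed the thresholds. Between Kdm5b-yfp stages Polr1b ranged from -0.12 to 0.30. After injection in zygotes Npm1 ranged from -0.02 to 0.02 and Fbl from -0.04 to 0.21, and in 2C samples Polr1b from -0.36 to 0.21, Nop56 from -0.09 to 0.15 and Rrn3 from -0.13 to 0.01. In the interaction Polr1a ranged from -0.34 to 0.03, Nop58 from -0.38 to 0.11, Ubtf from -0.53 to 0.15 and Nop56 from -0.03 to 0.22.

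Over all genes, the share past the rule in either direction between stages also moved. In water-injected samples it was 22.2% in the main fit, 52.2% without the fold threshold, 22.7% under library size scaling and 20.8% without a filter. It was 21.5% at a mean of 50 counts, 20.8% with the replicate block and 23.7% with all 35 samples. In Kdm5b-yfp samples these shares were 26.5%, 58.7%, 27.1%, 22.1%, 25.2%, 24.6% and 24.9%, and 25.5% with single embryos. For the lists between stages, numbers of genes past the rule moved by over 1.5 times as follows. Without the fold threshold, water-injected samples gave 2 higher and 5 lower Pol I factors, 4 lower snoRNP, 25 lower small subunit and 1 higher and 1 lower nucleoplasmin genes, and Kdm5b-yfp samples 1 higher factor, 2 higher snoRNP and 1 higher and 1 lower nucleoplasmin genes. Under library size scaling or no filter, water-injected samples gave 2 lower snoRNP, 1 higher small subunit and 1 lower nucleoplasmin genes, and Kdm5b-yfp samples 1 higher small subunit and 1 lower nucleoplasmin genes; scaling also gave 0 higher subunits and 1 higher large subunit gene there. A mean of 50 counts or the replicate block gave 1 higher subunit and 0 higher factors in water-injected samples, and the block also 1 higher snoRNP and 1 higher small subunit gene, with 1 higher small and 1 higher large subunit gene in Kdm5b-yfp samples. All 35 samples in 1 fit gave 1 higher small subunit gene at both injections and 1 lower nucleoplasmin gene in Kdm5b-yfp samples, where single embryos gave 1 higher subunit and 1 lower nucleoplasmin gene. With each sample left out, ranges were 1 to 3 higher small subunit genes, 1 to 2 higher subunits and 0 to 1 lower nucleoplasmin genes at both injections, 1 to 2 lower snoRNP genes in water-injected and 1 to 2 higher large subunit genes in Kdm5b-yfp samples. In the interaction, 0 to 1 list genes passed both thresholds with each sample left out. The cause of these changes was not tested. The lowest counts behind any value were 9 for Fbl and 11 for Polr1b.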

Other observations

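The table of repeats holds rows named for ribosomal RNA, which Pol I makes (5S is made by Pol III), and their estimated counts are given as a share of all repeat estimates in a sample. The row for large subunit rRNA took 6.18% to 9.96% in zygotes of both injections, 6.88% to 11.5% in single water-injected 2C embryos and 8.44% to 11.8% in single Kdm5b-yfp 2C embryos. It took 17.7% to 18.5% in the 3 pooled water-injected samples and 20% in the pooled Kdm5b-yfp sample, above every single embryo. Such shares do not separate newly made from stored rRNA, so they do not measure Pol I output. The cause of the higher share in pools was not tested. The small subunit row took 0.543% to 2.39% in zygotes, 0.575% to 0.914% in single 2C embryos of both injections and 0.917% to 1.21% in the 4 pools. The 5S row took 0.155% to 0.912% in zygotes and 0.124% to 0.591% in 2C samples. U3, the box C/D snoRNA of the small subunit processome, had estimates of 19 to 86 per sample.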
